A study of Mus musculus with 20 samples.

Results

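Iron handling and hepcidin were followed through 10 genes, picked by name from the 48440 genes of the deposited count table: the hepcidin genes Hamp and Hamp2, the transferrin gene Trf and its receptors Tfrc and Tfr2, the iron exporter gene Slc40a1, the ferritin genes Fth1 and Ftl1, the hemopexin gene Hpx and the heme oxygenase gene Hmox1. The libraries were made from gonadal fat pad and liver of C57BL/6 mice with the genotype label AdEpsKO, deficient in protein kinase C epsilon according to the series title and called KO here, and of wild-type (WT) mice. All mice, KO and WT, ate a high fat diet over 1 week and were then fasted for 6 h, so no group without the diet is part of the comparison. There were 20 libraries, 5 from each genotype and tissue, and the groups were of 5 mice. No source used here spells out AdEpsKO, so the driver and the cell type of the deletion, the part of Prkce removed and the age and sex of the mice are not given. Whether fat and liver libraries of the same number came from the same mouse is not stated either.

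Hepcidin is a small peptide hormone made by hepatocytes. It binds ferroportin, the only known cellular iron exporter and the product of Slc40a1, and removes it from the cell surface, which lowers the release of iron into plasma. Its gene is switched on by bone morphogenetic protein (BMP) and SMAD signalling when iron is plentiful and by interleukin 6 and STAT3 in inflammation. Mice carry a duplicate of the gene, Hamp2, beside Hamp. Inside cells, iron regulatory proteins bind short hairpins in the untranslated regions (UTRs) of ferritin, ferroportin and transferrin receptor transcripts when iron is scarce, blocking the translation of ferritin and ferroportin and protecting the transferrin receptor transcript from decay. Levels of RNA, which were measured here, therefore do not show that translational step.

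Library totals, in units of 1 M expected counts, were 12.881 to 17.277 in fat and 13.836 to 20.784 in liver. The tissue labels were borne out by marker genes: 8 hepatocyte markers summed to 105300 to 145200 CPM (counts scaled to a library of 1 M) in the liver libraries, and 6 adipocyte markers summed to 15700 to 27740 CPM in fat against 7.995 to 40.09 CPM in liver. Prkce, the targeted gene, was at 22.26 to 34.77 CPM in KO fat and 35.17 to 66.99 CPM in WT fat, with no overlap (exact permutation p = 0.00794, the smallest that 252 assignments of 5 and 5 libraries can give). Groups did not overlap in fat for 1.27% of 14707 tested genes, and the Prkce difference had an adjusted p of 0.687 in edgeR's test across all of them. In liver, Prkce overlapped between genotypes, at 8.631 to 14.32 CPM in KO livers and 10.58 to 19.94 CPM in WT livers. Some libraries held transcripts of other tissues: the fat libraries KO fat 3 and WT fat 4 held hepatocyte transcripts such as Alb (438.3 and 461.5 CPM against a median of 50.98 CPM over fat), and the liver libraries WT liver 2 and WT liver 4 held the skeletal muscle transcript Acta1 (41.96 and 76.02 CPM against a median of 2.673 CPM over liver). KO fat 2 held markers of bladder-type epithelium, summing to 1748 CPM against 8.836 to 27.08 CPM in the other 9 fat libraries, and of uterus and oviduct epithelium (753.5 CPM against 10.71 to 119.5 CPM). Skeletal muscle markers were highest in fat in WT fat 2 and KO fat 2 (644.0 and 506.2 CPM against 14.35 to 314.7 CPM). Differences whose sign changes without the hepatocyte or muscle pair are given both ways.

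Hamp and Hamp2 lie near each other on the minus strand of mouse chromosome 7 (GRCm38: Hamp, ENSMUSG00000050440, chr7:30942368-30944032; Hamp2, ENSMUSG00000056978, chr7:30922372-30924681). Their proximal promoters are shown because the data below compare the pair in the same livers. The sequences are from RefSeq (GRCm38.p6), chr7:30944030-30944164 for Hamp and chr7:30924179-30924313 for Hamp2, both minus strand, read 5′ to 3′ and ending at base -1 of Hamp and base 3 of Hamp2 counted from the RefSeq start site. Capitals mark GGCGCC, the core of the BMP-responsive element, or the bases at the same place in Hamp2, and then the match to TTCNNNGAA, the STAT site.
Hamp: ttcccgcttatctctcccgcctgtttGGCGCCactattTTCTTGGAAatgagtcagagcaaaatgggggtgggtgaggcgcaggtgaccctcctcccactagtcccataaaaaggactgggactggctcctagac
Hamp2: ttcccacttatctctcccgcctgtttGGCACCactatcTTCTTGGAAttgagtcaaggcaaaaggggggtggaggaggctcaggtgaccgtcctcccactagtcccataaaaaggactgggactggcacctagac
Of the 135 aligned bases, 123 were identical (91.1%) and 12 differed. One difference fell in the BMP element core, the substitution G4A from Hamp to Hamp2, counted from 1 at the 5′ end of GGCGCC. The core lay at -109 to -104 in Hamp, and the STAT match lay at -97 to -89 in Hamp and at -94 to -86 in Hamp2. Both motifs read the same on either strand and did not overlap. Across all 32851 promoter windows of the table, from 250 bases before to 50 bases after a start site, 11.9% held GGCGCC and 8.3% held TTCNNNGAA. Windows were found for 7 of the 10 genes (all but Trf, Slc40a1 and Hmox1), of which Tfrc also held GGCGCC, in 1 of its windows at -89 to -84.

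Hamp had the largest difference between genotypes among the 10 genes, with a higher mean in KO liver, but it varied widely within both groups and did not pass the test across all genes. The KO livers held 409.5, 401.9, 52.64, 911.5 and 51.46 CPM (replicates 1 to 5), and the WT livers held 18.57, 28.29, 29.98, 119.5 and 45.96 CPM. All 5 KO livers were above the WT median, 3 of them were above every WT liver, and the other two lay inside the WT range, so the groups overlapped. The means were 365.4 ± 352.8 and 48.45 ± 40.9 CPM (SD, n = 5 each), and KO livers exceeded WT livers 7.548 times (95% interval 1.662 to 34.27). In edgeR's quasi-likelihood test the unadjusted p was 0.0149 and the adjusted p was 0.28, and p was 0.0476 in a two-sided exact permutation test. DESeq2, the other count test, gave an adjusted p of 0.0474, just past the threshold of 0.05, where it called 138 genes and edgeR called 1. The log2 difference of 2.92 was 2.24 without KO liver 4 and 3.57 without WT liver 4, and the exact p was above 0.05 when any of KO liver 1, 2 or 4 or WT liver 1, 2, 3 or 5 was left out, at 0.0714 to 0.0952. In bulk RNA, fewer cells of a type and less RNA per cell cannot be told apart, here and in all results that follow.

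Hamp2, the duplicate, was higher on average in the same direction but by less, and the difference did not pass. The KO livers held 942.9, 558.6, 320.7, 652.5 and 111.8 CPM and the WT livers 267.3, 237.8, 104.7, 220.1 and 344.5 CPM. KO liver 5 was near the lowest WT liver and 3 KO livers were above every WT liver. KO exceeded WT 2.201 times (95% interval 0.9468 to 5.118; edgeR adjusted p = 0.403; exact permutation p = 0.175). Hamp2 had the larger share of the counts of the hepcidin pair in 9 of the 10 livers. Hamp made up 30.3%, 41.8%, 14.1%, 58.3% and 31.5% of the pair's counts in the KO livers and 6.49%, 10.6%, 22.3%, 35.2% and 11.8% in the WT livers. The ranges of this share overlapped, with KO liver 3 and WT liver 4 crossing between the groups, and KO liver 4 was the one liver in which Hamp exceeded Hamp2. The counts of both genes were whole in every library, although the deposited values are estimates that can split a read between near-identical genes. With the pair summed into 1 gene, the log2 difference was 1.64 with an adjusted p of 0.316.

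**Figure D1:**
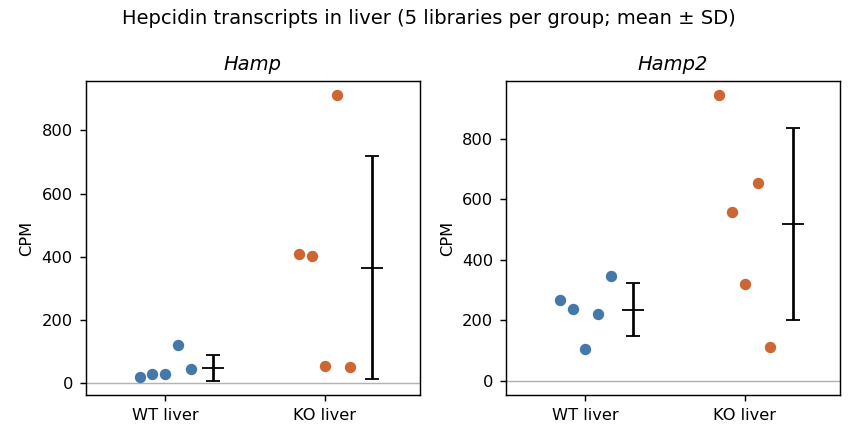
CPM of Hamp and Hamp2 (vertical axes, linear) in each WT and KO liver library, 5 points per group, with the mean and SD beside them as a bar with caps. The KO livers spread from 51.46 to 911.5 CPM for Hamp and from 111.8 to 942.9 CPM for Hamp2, and both genes overlap between the genotypes.

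Smad7 and Id1, genes that answer to BMP signalling, mostly followed Hamp across the livers. Smad7, an inhibitory SMAD, was at 10.49, 10.19, 7.35, 26.67 and 6.069 CPM in the KO livers and at 6.478, 6.737, 6.199, 8.084 and 7.65 CPM in the WT livers. Id1, a transcriptional regulator and classical BMP target, was at 8.562, 6.682, 3.367, 20.25 and 1.531 CPM in KO livers and at 2.95, 2.587, 3.209, 3.631 and 4.01 CPM in WT livers. KO liver 4 had the highest level of Hamp, Smad7 and Id1, and KO liver 1 and 2 came next for each of the 3 genes. KO liver 5 departed from this order. It had the lowest Smad7 and Id1, but its Hamp, at 51.46 CPM, was above every WT liver except WT liver 4. The lowest Hamp was in WT liver 1, at 18.57 CPM. Over the 10 livers, log2 CPM of Hamp and Smad7 had a Pearson r of 0.865 (permutation p = 0.00018; adjusted over the 8 partner genes tested, 0.00144) and a Spearman rho of 0.818 (p = 0.00569, adjusted 0.0297). The r was 0.886 without KO liver 4 and KO liver 1, the libraries farthest from the median of Hamp, and 0.833 after each genotype's mean was removed. For Id1 the r was 0.864 (permutation p = 0.00093, adjusted 0.00372) and rho was 0.806 (p = 0.00743, adjusted 0.0297), with an r of 0.644 without the same libraries and 0.866 within genotype. Each genotype alone holds 5 livers, too few for an r of its own. Smad6 and Atoh8, also BMP targets, were highest in KO liver 4 too (11.49 and 26.28 CPM) but followed Hamp less closely elsewhere. In KO liver 1, second in Hamp, Smad6 was at 5.269 CPM and Atoh8 at 7.65 CPM, below KO liver 3 for Smad6 (8.678 CPM) and below WT liver 5 for both (7.403 and 9.069 CPM).

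None of the other 6 partners passed with both r and rho. Hamp2 had an r of 0.748 with Hamp (permutation p = 0.0144, adjusted 0.0384), but its rho of 0.636 did not pass (adjusted p = 0.144) and the r was 0.518 without KO liver 4 and KO liver 1. Bmp6, the ligand that reports liver iron to hepatocytes, had an r of 0.309 (adjusted p = 0.508), and its KO to WT ratio was 0.9951 (95% interval 0.7033 to 1.408) at 3.19 and 3.18 CPM. Saa1 and Hp, which rise in the acute-phase response with interleukin 6, had r values of 0.23 and -0.415 (adjusted p = 0.544 and 0.369). Tfr2 and Slc40a1 had r values of -0.224 and -0.47 (adjusted p = 0.544 and 0.353). Without KO liver 4 and KO liver 1, r was -0.717 for Slc40a1, -0.448 for Hp, 0.156 for Tfr2, -0.036 for Saa1 and -0.196 for Bmp6. After each genotype's mean was removed, r was -0.499 for Slc40a1, 0.116 for Hp, 0.331 for Tfr2, 0.449 for Saa1 and 0.401 for Bmp6. For Tfr2 and Hp, r was thus negative over all livers, where it did not pass, and positive after this removal, where it was not tested. Of 12374 genes that averaged 1 CPM or more over the livers, the 5 with the highest r with Hamp over the 10 livers were Rab3gap2 (0.924), Cox11 (0.866), Smad7 (0.865), Id1 (0.864) and Gldc (0.864), given as a description. All these points share their libraries and depth.

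**Figure D2:**
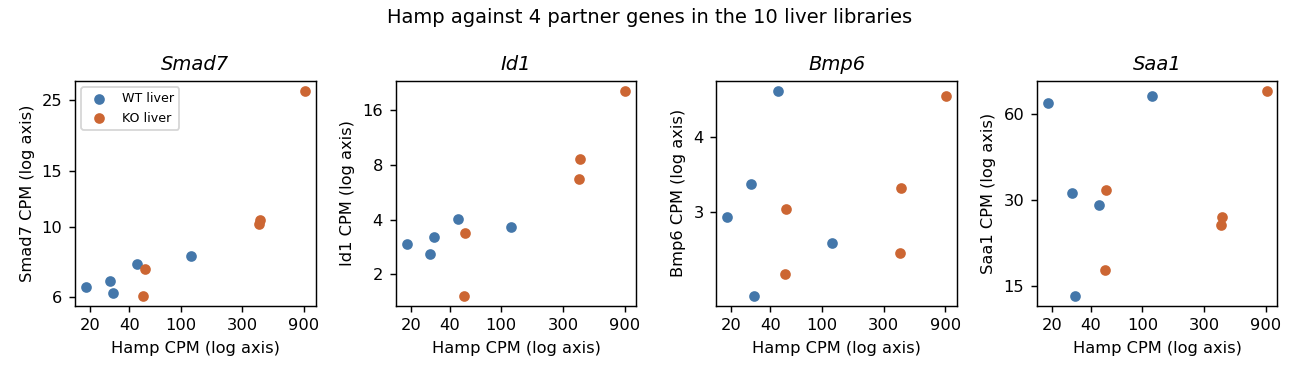
CPM of Smad7, Id1, Bmp6 and Saa1 (vertical axes) against CPM of Hamp (horizontal axes) in the 10 liver libraries, all axes logarithmic, with 1 point per library and colour for genotype. Smad7 and Id1 climb with Hamp to KO liver 4 at 911.5 CPM of Hamp, whereas Bmp6 and Saa1 have r values of 0.309 and 0.23.

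None of the 24 tested genes of 25 that control hepcidin was called between KO and WT liver, where 0.00752% of 13298 tested genes were called, and 1 was higher and 2 were lower at an unadjusted p under 0.05, a limit that 13.1% of all tested genes met. The list had a median log2 difference of 0.07 against 0.0 for all genes. Id1 was 2.443 times its WT level in KO liver (95% interval 0.9645 to 6.19, unadjusted p = 0.0578) and Smad7 1.717 times (0.9732 to 3.028, unadjusted p = 0.0599). Bmpr2, a BMP receptor, had a ratio of 1.291 (unadjusted p = 0.0122). Socs3, a target of STAT3 that dampens interleukin 6 signalling, had a ratio of 0.6497 (unadjusted p = 0.0114, edgeR adjusted p = 0.261) and was at 8.895 ± 1.872 CPM in KO livers and 13.67 ± 4.045 CPM in WT livers (SD, n = 5 each). All 8 acute-phase markers were lower on average in KO liver, as were 50.0% of all genes, with a median log2 difference of -0.44. At an unadjusted edgeR p under 0.05, 3 of the 8 were lower, beside 6.56% of all genes, and none was called. They summed to 6464 to 7794 CPM in KO livers and 7694 to 11450 CPM in WT livers. Fgl1, a secreted hepatocyte protein that lowers hepcidin by binding BMPs, had a ratio of 0.648 (unadjusted p = 0.0181).

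No iron gene was called between KO and WT liver by edgeR: 0 of the 10 tested, beside the 0.00752% of all genes. At an unadjusted p under 0.05, 1 of the 10 was higher (Hamp) and 3 were lower (Trf, Tfr2 and Hpx), beside 6.56% of all genes higher and 6.56% lower. The median log2 difference of the 10 was -0.14 against 0.0 for all genes. These 3 lower genes encode hepatocyte proteins. Of 8 hepatocyte markers, 7 were also lower on average in KO liver (50.0% of all genes were), with a median log2 difference of -0.16. The part of hepatocyte content in the result was not tested.

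Trf encodes transferrin, the plasma protein that carries iron. It was at 17070, 17160, 22780, 17360 and 17440 CPM in the KO livers and at 23680, 24690, 21310, 21870 and 20930 CPM in the WT livers. KO liver 3 lay among the WT livers, and the other 4 KO livers lay below every WT liver. Among the KO livers, the hepatocyte marker sum was highest in KO liver 3, at 124600 CPM, and next in KO liver 1, which had the lowest Trf, at 124000 CPM. The part of hepatocyte content in the Trf levels was not tested. The KO to WT ratio of Trf was 0.8163 (95% interval 0.6877 to 0.969; unadjusted p = 0.0235, edgeR adjusted p = 0.314; exact permutation p = 0.0317). Leaving out KO liver 3, the one KO liver inside the WT range, separates the groups completely. The exact p was then 0.00794, the smallest it can take with the remaining libraries, so it adds no support. The adjusted p from edgeR was 0.193 without KO liver 3.

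Tfr2 encodes the second transferrin receptor, a sensor of transferrin-bound iron on hepatocytes that acts upstream of hepcidin. Its levels were 308.3, 355.5, 371.5, 331.5 and 294.2 CPM in KO livers and 389.3, 367.2, 341.9, 501.0 and 389.6 CPM in WT livers, with no KO liver above the WT median and some overlap. The ratio was 0.835 (95% interval 0.7037 to 0.9909; edgeR adjusted p = 0.36; exact permutation p = 0.0397, and 0.103 with plain library sizes). Tfrc, the receptor that takes transferrin into most cells, was much lower in liver and closer between genotypes. It was at 26.09, 29.3, 31.96, 24.14 and 27.13 CPM in KO livers and at 29.04, 26.52, 36.9, 35.49 and 33.87 CPM in WT livers. No KO liver exceeded the WT median, and the ratio of 0.858 (95% interval 0.7293 to 1.009; edgeR adjusted p = 0.402; exact permutation p = 0.0952) did not pass.

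Hpx encodes hemopexin, which binds free heme in plasma. Its levels were 2800, 3212, 3396, 3415 and 2554 CPM in the KO livers and 5160, 3320, 3626, 3841 and 3307 CPM in the WT livers. No KO liver was above the WT median, and WT liver 1 stood above the rest. The ratio was 0.7985 (95% interval 0.6489 to 0.9825; edgeR adjusted p = 0.348; exact permutation p = 0.0476, and 0.103 with plain library sizes), and the log2 difference of -0.33 was -0.2 without WT liver 1. Hmox1, the inducible enzyme that breaks heme down and frees its iron, was at 21.08, 21.3, 30.92, 43.48 and 18.26 CPM in KO livers and at 37.77, 43.71, 33.99, 30.55 and 24.43 CPM in WT livers. The groups overlapped widely and the ratio was 0.79 (95% interval 0.5458 to 1.144; edgeR adjusted p = 0.567; exact permutation p = 0.198).

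Ferroportin and ferritin RNA showed the smallest differences in liver. Slc40a1 was at 231.9, 228.1, 289.0, 305.8 and 330.5 CPM in KO livers and at 278.4, 292.0, 308.9, 234.9 and 320.7 CPM in WT livers, a ratio of 0.9653 with a 95% interval of 0.8022 to 1.161. The heavy ferritin chain gene Fth1, whose product oxidises iron for storage, ran from 838.9 to 1030 CPM in KO livers and from 895.1 to 1022 CPM in WT livers, a ratio of 1.003 (0.8708 to 1.154). The light chain gene Ftl1 ran from 1320 to 2215 CPM in KO livers and from 1811 to 2228 CPM in WT livers, a ratio of 0.9588 (0.7807 to 1.178). These intervals bound the difference of the group means and do not show that the genotypes are the same. Markers of macrophages, which recycle iron from red cells and store it, were lower on average in KO liver in 8 of 8 (median log2 difference -0.61). Those of Kupffer cells, the liver's resident macrophages, were lower in 6 of 6 (-0.47), and those of erythroid cells in 7 of 7 (-1.03). Of all genes, 50.0% were lower. At an unadjusted edgeR p under 0.05, 6 of 8, 5 of 6 and 5 of 7 were lower, beside 6.56% of all genes. None was called. Summed Kupffer cell markers ran from 295.1 to 398.3 CPM in KO liver and from 336.5 to 644.4 CPM in WT liver, and erythroid markers from 191.9 to 506.7 CPM and from 327.9 to 1013 CPM. The part of these cells in the levels of Slc40a1, Hmox1 and the ferritin genes was not tested.

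**Figure D3:**
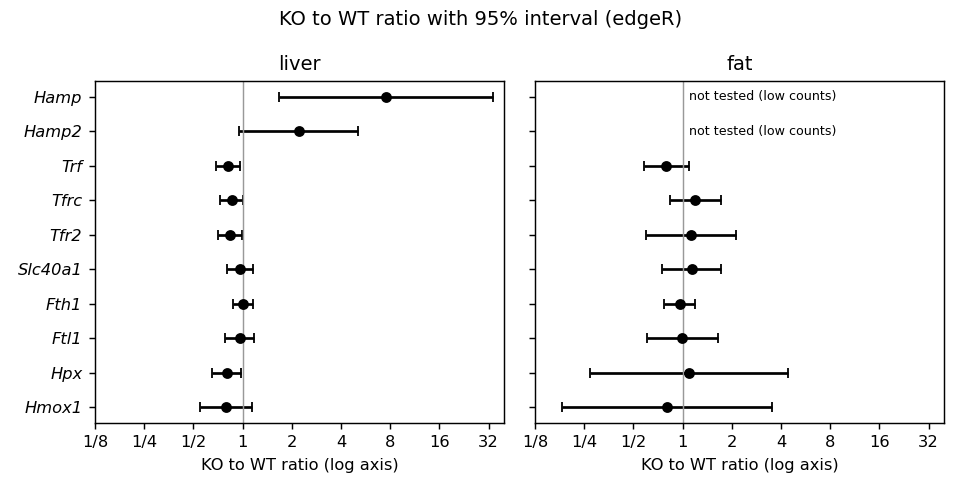
KO to WT ratio of each of the 10 genes (horizontal axes, logarithmic) in liver and in fat, as points with 95% intervals computed from edgeR's test. The interval of Hamp in liver runs from 1.662 to 34.27, those of Trf, Tfr2 and Hpx in liver end just below 1, and Hamp and Hamp2, below the filter on low counts, have no point in fat.

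The iron-responsive hairpins of 4 of the genes are shown because their position decides which way the iron regulatory proteins act. A search of the coding transcripts for the 17-base core (a C, then 5 bases that pair with the last 5, around CAGTGN) found it in the 5′ UTR, in exon 1, of Fth1 (chr19:9982738-9982754, plus strand), Ftl1 (chr7:45459785-45459801, minus strand) and Slc40a1 (chr1:45925471-45925487, minus strand), and 4 times in the 3′ UTR of Tfrc, in exon 19 (chr16:32631225-32631241, chr16:32631604-32631620, chr16:32631669-32631685 and chr16:32631716-32631732, plus strand; GRCm38, GENCODE M21). Capitals mark the loop.
Fth1: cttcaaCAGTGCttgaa
Ftl1: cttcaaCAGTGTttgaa
Slc40a1: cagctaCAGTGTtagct
Tfrc 1: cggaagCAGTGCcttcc
Tfrc 2: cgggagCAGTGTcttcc
Tfrc 3: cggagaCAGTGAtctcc
Tfrc 4: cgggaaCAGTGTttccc
Of 21877 genes searched, 0.142% held the core in a 5′ UTR, 0.59% in a 3′ UTR and 0.64% in coding sequence, so a match by itself is a description and not a site. For the genes with a 5′ hairpin, the KO to WT ratios of RNA in liver were 1.003 (Fth1), 0.9588 (Ftl1) and 0.9653 (Slc40a1), and for Tfrc, with hairpins in the 3′ UTR, it was 0.858. Of the regulators of this system, Ireb2, iron regulatory protein 2, had a ratio of 1.226 in liver (95% interval 1.061 to 1.416; unadjusted p = 0.00893, edgeR adjusted p = 0.254), and Fbxl5, which directs its degradation when iron is present, had a ratio of 1.132 (unadjusted p = 0.0555). None of the 3 genes of the list was called.

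The remaining iron and heme genes were likewise uncalled in liver. For heme transport and breakdown, 8 of 10 genes were lower on average (50.0% of all genes were), 4 of them at an unadjusted p under 0.05 (6.56% of all genes were lower at that limit), among them Blvrb, a biliverdin reductase (ratio 0.7117, unadjusted p = 0.00118, edgeR adjusted p = 0.211), and Hp, haptoglobin, which binds free hemoglobin (0.6068, unadjusted p = 0.00399). For heme synthesis, 1 of 8 genes had an unadjusted p under 0.05, near the 13.1% of all genes, Alas1, the rate-limiting enzyme outside red cells (0.6334, unadjusted p = 0.0447). For iron uptake, export and storage, 10 of 12 tested genes were lower on average and 2 had an unadjusted p under 0.05, again near 13.1%, the metalloreductase gene Steap4 (0.7155) and the iron transporter gene Slc11a2 (0.8107). For BACH1 and NRF2 targets, 7 of 8 tested genes were higher on average, with a median log2 difference of 0.13, and 0 of 8 had an unadjusted p under 0.05.

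In fat, Hamp and Hamp2 were close to absent. Hamp had 11, 1, 2, 0 and 4 counts in the KO libraries and 6, 3, 0, 3 and 16 in the WT libraries, and Hamp2 had 9, 6, 0, 4 and 0 against 2, 1, 0, 13 and 7. Both were below the filter on low counts in the fat comparison, so edgeR did not test them there. The genotypes overlapped, with exact permutation p = 0.706 for Hamp and 0.905 for Hamp2 (two-sided, n = 5 each), and a difference was not detectable at this depth. None of the other 8 genes was called in fat, where edgeR called 0.0% of 14707 genes, and none had an unadjusted p under 0.05, beside 7.13% of all genes; DESeq2 called 16 genes in fat, none of them among these. Their median log2 difference was 0.06 against 0.0 for all genes. The ratios ran from 0.7945 for Trf (95% interval 0.5767 to 1.095) to 1.195 for Tfrc (0.8318 to 1.717).

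The fat libraries differed more within a genotype than between genotypes for the genes of heme breakdown and ferritin. Hmox1 was at 28.88, 22.89, 341.9, 71.66 and 44.67 CPM in KO fat and at 32.43, 37.73, 454.2, 69.94 and 40.75 CPM in WT fat. KO fat 3 and WT fat 3 stood far above the other 8 libraries, and the same libraries were highest for Ftl1, Fth1 and Slc40a1. Ftl1 was at 2930 and 3323 CPM in them and at 1293 to 1951 CPM in the other 8. Slc40a1 was at 55.76 and 38.84 CPM against 21.64 to 31.44 CPM, and Fth1 was at 1517 and 1664 CPM against 1088 to 1421 CPM. Tfrc was highest in KO fat 3, at 78.82 CPM, but at 47.3 CPM in WT fat 3 it ranked sixth of the 10. Trf and Tfr2 were not raised in this pair, at 1873 and 1625 CPM against 1381 to 2985 CPM for Trf and 5.362 and 4.855 CPM against 2.115 to 9.615 CPM for Tfr2. With 1 high library in each genotype, the KO to WT log2 difference of Hmox1 was -0.32, and it was -1.59 without KO fat 3 and 1.17 without WT fat 3.

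The same pair of fat libraries had the highest sums of 8 macrophage markers. WT fat 3 held 3916 CPM and KO fat 3 held 2796 CPM, against 623 to 2195 CPM in the other 8, and for 6 of the 8 markers these were the highest libraries. The Kupffer cell markers, which include Cd163, went otherwise for KO fat 3. They summed to 179.1 CPM in WT fat 3, the highest, but to 69.72 CPM in KO fat 3, against 59.85 to 128.4 CPM in the other 8. Erythroid markers were highest in WT fat 3 (3155 CPM) and WT fat 5 (1625 CPM), with KO fat 3 at 1288 CPM. Over the other 8 fat libraries, log2 CPM of Hmox1 had a Pearson r of 0.815 with the summed macrophage markers (exact permutation p = 0.0145; adjusted over the 8 genes tested, 0.0485) and a rho of 0.881 (exact p = 0.00724, adjusted 0.0579). Ftl1 had an r of 0.81 and Fth1 of 0.784 (exact permutation, adjusted p = 0.0485 each), with rho of 0.476 and 0.833 (adjusted p = 0.324 and 0.0616). Without KO fat 4 and KO fat 2, the libraries farthest from the median of the markers, r was 0.516 for Hmox1, 0.421 for Ftl1 and 0.549 for Fth1, so the relations rest on those libraries, of which KO fat 2 is the one with epithelial transcripts. Slc40a1 had an r of 0.411 (exact permutation, adjusted p = 0.42). The pair was set apart after its values had been seen, and whether the macrophage content accounts for these levels was not tested.

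**Figure D4:**
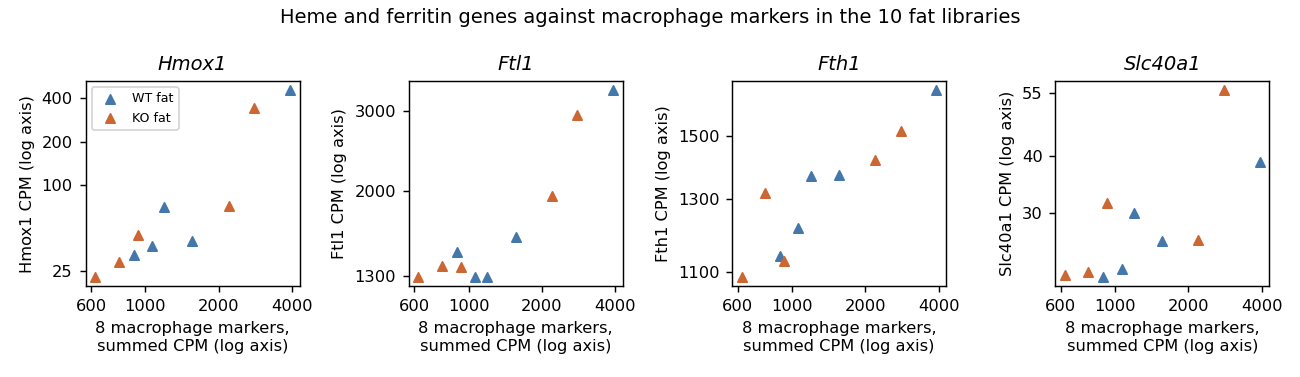
CPM of Hmox1, Ftl1, Fth1 and Slc40a1 (vertical axes) against the summed CPM of 8 macrophage markers (horizontal axes) in the 10 fat libraries, all axes logarithmic, with 1 point per library and colour for genotype. The rightmost points, KO fat 3 at 2796 CPM and WT fat 3 at 3916 CPM of markers, are the highest for each of the 4 genes.

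Hpx in fat was high where hepatocyte transcripts were high. It was at 7.447, 1.35, 16.31, 0.9684 and 2.177 CPM in KO fat and at 2.326, 1.853, 0.971, 15.77 and 4.848 CPM in WT fat. The top libraries, KO fat 3 and WT fat 4, were those with hepatocyte transcripts, in which the median of 8 hepatocyte markers was 0.621% and 0.569% of the mean liver level, against 0.0054% to 0.0733% in the other 8. Hpx itself was at 0.0287% to 0.498% of its liver level. Trf was at 6.87% to 13.8% of its liver level in all 10 fat libraries, Slc40a1 at 7.23% to 20.9% and Tfr2 at 0.546% to 2.59%, whereas no hepatocyte marker exceeded 1.07%. The KO to WT log2 difference of Slc40a1 in fat, 0.18, was -0.1 without the pair with hepatocyte transcripts. That of Tfrc went from 0.26 to 0.0795, that of Tfr2 from 0.17 to 0.54, that of Ftl1 from -0.0075 to -0.36 and that of Hmox1 from -0.32 to -1.75, none of them called. KO fat 3 is also in the pair with the highest macrophage marker sums. Without KO fat 3 alone, the differences were -0.13 for Slc40a1, 0.11 for Tfrc, -0.26 for Ftl1 and -1.59 for Hmox1. These shifts therefore cannot be assigned to hepatocyte transcripts.

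The other lists held no called gene in fat. Cd163, the macrophage receptor that takes up hemoglobin bound to haptoglobin, was in KO fat at 0.6372 of its WT level (95% interval 0.4943 to 0.8214; unadjusted p = 0.00253, edgeR adjusted p = 0.687), at 65.96 ± 15.36 and 103.7 ± 13.69 CPM (SD, n = 5 each). It was lower on average in liver as well, with a ratio of 0.594 (unadjusted p = 0.0134). Hephl1, a ferroxidase, had a ratio of 2.909 in fat (1.403 to 6.032, unadjusted p = 0.00831), and Slc39a8, a metal transporter, of 0.6079 (unadjusted p = 0.0346). Smad4 (1.195) and Smad1 (1.261) were the 2 of 24 hepcidin control genes at an unadjusted p under 0.05, a share close to the 7.13% of all genes. All 7 erythroid markers were lower on average in KO fat too, as were 49.9% of all genes, with a median log2 difference of -1.25. Of the 7, 6 had an unadjusted edgeR p under 0.05, beside 7.13% of all genes in either direction, and none was called.

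The difference between the KO effects in fat and in liver was tested in all 20 libraries as an interaction. None of the 8 genes that passed the filter in fat was called (0.0% of 15652 genes were), and none had an unadjusted p under 0.05, as 5.36% of all genes did. For Tfrc the difference was 0.47 on the log2 scale (95% interval -0.09 to 1.04; edgeR adjusted p = 0.907), and for the other 7 it ran from -0.07 to 0.45. Hamp and Hamp2 entered this fit only through their counts in liver, so no value is given for them, and whether their KO effect differs between the tissues was not tested.

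Levels of the 10 genes, in CPM per kb of the longest annotated transcript, ordered the liver and the fat pad differently. In WT liver the order of mean levels was Trf (8749), Hpx (2569), Ftl1 (2079), Hamp2 (537.6), Fth1 (453.7), Tfr2 (129.5), Hamp (118.2), Slc40a1 (73.06), Hmox1 (21.73) and Tfrc (6.618). The libraries of Hpx and Ftl1, of Hamp2 and Fth1, of Tfr2 and Hamp, and of Hamp and Slc40a1 overlapped. In KO liver both hepcidins stood above Fth1, at 1184 ± 727.4 for Hamp2 and 891.2 ± 860.5 for Hamp (SD, n = 5 each), though their libraries overlapped with those of Fth1. In WT fat the order was Ftl1 (1851), Trf (934.7), Fth1 (656), Hmox1 (80.95), Tfrc (9.701), Slc40a1 (7.069), Hpx (3.438), Tfr2 (1.704), Hamp (0.899) and Hamp2 (0.6832). From Tfrc downwards each gene overlapped with the next, as Trf did with Fth1. With the median transcript length in place of the longest, Trf came before Ftl1 in WT fat (3101 and 2334) Slc40a1 rose from place 8 to place 5 in WT liver, and in KO liver Fth1 (1312) came before Hamp2 (1220) and Hamp (891.2), so the place of the hepcidins beside Fth1 depends on the length used.

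**Figure D5:**
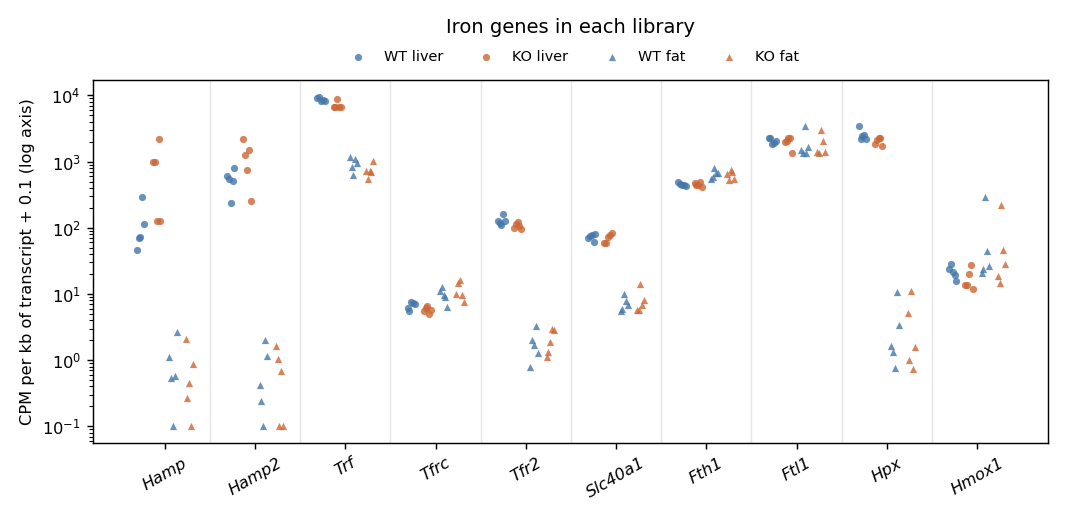
CPM per kb of transcript plus 0.1 (vertical axis, logarithmic) of the 10 genes in each of the 20 libraries, circles for liver, triangles for fat and colour for genotype. Hamp, Hamp2, Hpx and Tfr2 lie far apart between the tissues, while Tfrc, Fth1 and Ftl1 lie close together. Hmox1 runs from 14.59 to 289.5 in fat and from 11.64 to 27.86 in liver, and the tissues share no scaling.

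Between the tissues, 5 of the 8 genes that passed the filter on low counts in fat were called lower in WT fat than in WT liver and none was called higher, where 35.9% of 14739 genes were called lower and 38.4% higher. The log2 differences were -10.46 for Hpx (95% interval -12.41 to -8.52; edgeR adjusted p = 5.26e-07), -7.16 for Tfr2, -4.29 for Slc40a1, -4.15 for Trf and -1.09 for Ftl1 (adjusted p = 0.00526). Hamp and Hamp2 passed the filter in these fits only through liver, so their difference is given as levels, without a test: each fat library held 0.0% to 0.512% of the mean liver level of Hamp and 0.0% to 0.218% of that of Hamp2. In KO libraries 6 of the 8 were called lower in fat, beside 35.6% of 14603 genes (38.8% were called higher), with Fth1 added at -0.44 (adjusted p = 0.0247). Tfrc, Fth1 in WT and Hmox1 were not called. The scale decides the smaller of these differences: with plain library sizes the median of all genes was 0.97 in WT and 0.95 in KO instead of 0.04 and 0.05, the share of higher calls among all called genes in WT went from 5663 of 10947 to 10593 of 12839, Fth1 turned from lower to called higher in both genotypes (0.55 in WT and 0.46 in KO), Tfrc was called higher (0.56 and 1.035), and Ftl1 was no longer called (-0.13 and -0.11). Relative to these medians, Fth1, Tfrc and Ftl1 stayed below the typical gene in WT on either scale. Hmox1 was called higher in fat with plain sizes, at 1.97 in WT and 1.95 in KO, and was -0.50 in WT without WT fat 3 and -0.28 in KO without KO fat 3. The calls of Hpx, Tfr2, Slc40a1 and Trf were made on both scales.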

How the data were processed

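The deposited table gives RSEM's expected counts for each gene in 20 libraries, not normalized, and 3.95% to 5.8% of a library's values were not whole. Per the labels' protocols, RNA was extracted with Qiagen RNeasy and libraries were made with a TruSeq Stranded mRNA kit. Tools named in the submitters' processing notes are RSEM 1.2.12, STAR 2.4.0d, Trim Galore 0.2.8 and DESeq2, with the build GRCm38; annotation and strand setting: not given in the sources used here. Of 48440 gene IDs, 48058 were matched to symbols in GENCODE M21. Reads of overlapping or near-identical genes may be divided by the estimation. The counts of Hamp and Hamp2 were nevertheless whole in every library.

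Counts were rounded. Genes were kept by filterByExpr (minimum count 10, total 15), scaled by TMM and tested with edgeR 4.0.16 (quasi-likelihood, robust; R 4.3.3, limma 3.58.1), each comparison on its own libraries, the interaction on all 20. P-values were adjusted by Benjamini-Hochberg over all genes tested, and an adjusted p under 0.05 was called. CPM and the exact permutation tests of log2 CPM (prior count 2) used scaling within a tissue, so CPM of fat and liver share no scaling, unlike the fits between tissues; marker sums and shares of the liver level used plain sizes. Correlations with Hamp used 100000 resamples. Ratios and differences are edgeR's. The intervals were computed from them, as edgeR's test returns none. The standard error was taken as the absolute log2 difference over the square root of the test's F, and was multiplied by a t quantile. The fit was also run on simulated counts, drawn with the spread estimated from these data. No simulated library held transcripts of another tissue, so that run does not show how the fit handles such libraries. Counting error limits genes with few counts most; the SD also holds differences between mice.

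The genes, lists and tests were chosen with earlier results of these data known. The genes named are the 10, Prkce, up to 4 per list (the 2 with the smallest p in each tissue) and the 5 most like Hamp. Id1, Smad7, Bmp6, Saa1 and Hp are named as partners, and Alb and Acta1 as markers. Fgl1, Smad6 and Atoh8 are named outside these rules. The list of mitochondrial iron genes is not reported here. Alternatives were RLE scaling, plain sizes, no filter, at least 1 CPM in 5 libraries, DESeq2 1.42.0, limma-voom with quality weights, the replicate number as a block, all 20 libraries in 1 fit, the hepcidin and ferritin copies summed, each library left out, the liver pair with muscle transcripts left out and the fat pair with hepatocyte transcripts left out. The plain sizes in the fits, the limit for the fat pair (Alb over 5 times the fat median, since the planned limit of 10 times held no library) and the relations over 8 fat libraries were chosen after seeing the data.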

Additional observations from a re-analysis of the deposited data

Results flagged for a closer look

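In 8 of the 40 sets of 5 libraries (10 genes in 4 groups), the highest library stood apart from the nearest other by more than 0.71 of the whole range. That limit flags about 1 in 20 sets when values are independent and normally distributed. CPM on a linear scale need not be, and the sets share libraries, so this rate cannot be set against the 8. In liver these were Hamp in WT liver 4 at 119.5 CPM, with the next at 45.96 CPM, Trf in KO liver 3 at 22780 CPM, with the next at 17440 CPM, and Hpx in WT liver 1 at 5160 CPM, with the next at 3841 CPM. In fat, Hmox1 stood apart in KO fat 3 at 341.9 CPM and in WT fat 3 at 454.2 CPM, with the next libraries at 71.66 and 69.94 CPM. Slc40a1 stood apart in KO fat 3 at 55.76 CPM, with the next at 31.44 CPM, and Ftl1 in WT fat 3 at 3323 CPM, with the next at 1580 CPM. Hpx stood apart in WT fat 4 at 15.77 CPM, with the next at 4.848 CPM. Of these 8 values, 5 fall in KO fat 3, WT fat 3 and WT fat 4, the fat libraries with the highest sums of the macrophage or hepatocyte marker lists. WT liver 4 is one of the livers with skeletal muscle transcripts. The part of these cells in the values was not tested.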

How the results depend on the processing

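Under the alternatives run, no KO to WT difference of the 10 genes was called in either tissue, nor any interaction, except Hamp in liver with DESeq2 (1 gene called; log2 difference 2.91, adjusted p = 0.0474; over the other alternatives and left-out libraries 2.24 to 3.57, and 1.64 with Hamp2 summed in). The log2 difference of Hamp in mean log2 CPM was 1.91 to 2.94 with each library left out. Over all genes, DESeq2 called 16 in fat and 138 in liver, and 2 interactions. In liver, 15 genes were called with no filter, 3 each with limma-voom, with the replicate block and without the pair with muscle transcripts, 2 in 1 fit of all 20 libraries and 0 to 3 with each library left out. The cause of these changes was not tested.

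Some differences changed sign, all of them uncalled as reported except Fth1 between KO tissues (called lower at -0.44). With limma-voom the log2 differences were 0.0246 (Fth1), 0.20 (Ftl1), -0.40 (Hpx) and 0.22 (Hmox1) in fat, 0.0435 (Ftl1) in liver, -0.31 between WT tissues (Hmox1) and -0.02063 between KO tissues (Tfrc). Without the hepatocyte pair they were -0.10 (Slc40a1, KO and WT fat), -0.0339 (Tfrc) and -0.28 (Hmox1) between KO tissues, and without the muscle pair -0.0130 (Fth1, KO and WT liver). With plain sizes Tfrc was 0.56 between WT tissues and Fth1 was 0.55 there and 0.46 between KO tissues, all called higher. With each library left out, the ranges in fat were -0.0278 to 0.51 (Tfr2), -0.13 to 0.33 (Slc40a1), -0.13 to 0.0237 (Fth1), -0.26 to 0.34 (Ftl1), -0.79 to 1.17 (Hpx) and -1.59 to 1.17 (Hmox1). In liver they were -0.12 to 0.0131 (Slc40a1), -0.0315 to 0.0413 (Fth1) and -0.11 to 0.0489 (Ftl1), and between tissues -0.50 to 1.201 (Hmox1, WT), -0.28 to 1.26 (Hmox1, KO) and -0.0339 to 0.23 (Tfrc, KO).

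The replicate numbers were not taken as pairs, since no source says what they share and not every correlation exceeded 0.1: deviations of same-numbered libraries correlated at -0.228 to 0.487 between KO and WT fat and at -0.243 to 0.233 in liver, and 3 and 1 libraries respectively correlated best with their own number. Between fat and liver they correlated at -0.015 to 0.083 in KO and -0.08 to 0.198 in WT, with 1 and 2 best with their own number. The highest of these correlations, 0.487, was that of KO fat 3 and WT fat 3, the fat libraries with the highest macrophage marker sums and Hmox1. Whether these libraries share their handling is not given. With the replicate block, 0 genes were called in fat and 3 in liver, Ftl1 in fat was 0.01935, none of the 10 genes was called between KO and WT, and the calls of members between tissues did not change. Depth limits Hamp and Hamp2 in fat, at 0 to 16 counts. A limit for fat libraries of 10 times the median of Alb, listed with the other alternatives, held no library, so no fit without them was made.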
